A study of Homo sapiens with 4 samples.

Results

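The genes examined here encode the transcriptional end of the Hippo pathway: the coactivators YAP (YAP1) and TAZ (WWTR1), the DNA-binding factors TEAD1, TEAD2, TEAD3 and TEAD4, the target genes CCN1, CCN2 and ANKRD1, and LATS2, a kinase of the pathway that is also a target. These 10 genes were chosen by name, and each was found once among the 39323 genes listed in the tables. Expression was measured by RNA-seq in RD and JR1, a pair of established cell lines of fusion-negative rhabdomyosarcoma (FN-RMS), a childhood tumor of muscle lineage without a PAX-FOXO1 fusion. Each line had been infected with a pLKO.1-puro lentivirus that expressed either a non-targeting hairpin (shSCR) or a single hairpin against SKP2 (shSKP2, the vector named shSKP2.2), and was selected with puromycin, so that vector and drug selection are shared by all groups, as is a genotype labelled WT. When the sequenced cells were harvested is not given in the sources used here. There was 1 library for each of RD shSCR, RD shSKP2, JR1 shSCR and JR1 shSKP2. SKP2 is the F-box subunit of an SCF ubiquitin ligase, and the study depleted it to follow differentiation, senescence and growth. With 1 library per group no difference below has a replicate check, no p-value was computed, and only 1 hairpin against SKP2 was sequenced.

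In the Hippo pathway the kinases STK3 and STK4, with the adaptor SAV1, activate LATS1 and LATS2, and these phosphorylate YAP and TAZ, which are then held in the cytoplasm or degraded. Unphosphorylated YAP and TAZ enter the nucleus, bind TEAD factors and turn on genes such as CCN1, CCN2 and ANKRD1, while LATS2 feeds back on the pathway. In skeletal muscle YAP activity is known to favour proliferating myoblasts over differentiating ones, and TEAD factors also bind the promoters of many contractile genes. Phosphorylation and localisation are not visible in RNA, so the values below describe transcripts and not pathway activity.

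Values are in TPM, the length-corrected share of each gene among all transcripts, scaled to the same total in every library. A gene was tested if its TPM averaged 1 or more across the libraries, and 12985 genes, with all 10 described here, met this. Changes are log2 of the ratio of TPM + 1. A gene is said to have risen or fallen where that ratio was 2-fold or more. Short structural RNAs took from 50.1% of the TPM in RD shSCR to 64.9% in JR1 shSKP2, with more in the shSKP2 library of each line, and the median tested gene changed by -0.27 in RD and by -0.21 in JR1 with shSKP2. For this reason changes are also stated against that median, and with these RNA genes taken out and TPM rescaled. SKP2 itself fell from 92.8 to 7.40 TPM in RD and, for JR1, from 46.5 to 2.72 TPM. Of 8 myogenic markers, 6 reached 1 TPM in at least 1 library, MYF5 was listed at 0 in all 4 and MYF6 was at most 0.500 TPM. The summed TPM of the myogenic markers went from 412 to 572 in RD and from 555 to 779 in JR1 after depletion, and its part in the results below was not tested. The largest part of that sum was CHRNA1, which went from 196 to 314 TPM in RD and, for JR1, from 284 to 425 TPM. PAX7, a marker of muscle progenitors, went the other way, from 10.8 to 3.36 TPM and from 4.84 to 1.16 TPM, and DES was lower in JR1, at 51.3 and 36.0 TPM. Of 9 markers of other cell types only PAX2 passed 1 TPM. It had 8.28 TPM in RD shSCR, 6.99 TPM in RD shSKP2, 0.580 TPM in JR1 shSCR and 1.46 TPM in JR1 shSKP2. The sum of the 9 ranged from 0.780 TPM in JR1 shSCR to 8.45 TPM in RD shSCR. In such bulk libraries fewer cells of a type and less RNA per cell cannot be told apart.

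YAP1 and WWTR1 encode the paralogous coactivators YAP and TAZ, which lack a DNA-binding domain of their own. YAP1, on chromosome 11 (GRCh38, bases 102109957 to 102233424 in the authors' tables), had 36.6 TPM in RD shSCR, 22.4 TPM in RD shSKP2, 22.7 TPM in JR1 shSCR and 17.1 TPM in JR1 shSKP2. The RD control stood highest, and the shSKP2 library was the lower one in each line. WWTR1, on chromosome 3 (bases 149517235 to 149724788), had 45.2 TPM in RD shSCR, 19.3 TPM in RD shSKP2, 51.1 TPM in JR1 shSCR and 25.7 TPM in JR1 shSKP2. WWTR1 thus fell in RD, by 1.19 on the log2 scale, and its change of -0.97 in JR1 lay just inside the 2-fold limit. YAP1 changed by -0.68 in RD and -0.39 in JR1. Against the median tested gene these changes were -0.92 and -0.75 for WWTR1, and -0.41 and -0.17 for YAP1, so that WWTR1 in RD was then inside the limit. In RD 4.53% of the tested genes had a lower change than WWTR1, and in JR1 9.77% had. WWTR1-AS1, an antisense gene that overlaps WWTR1, had at most 0.580 TPM in any library.

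The ratio of WWTR1 to YAP1 within a library does not depend on how libraries are scaled. It was 1.24 in RD shSCR, 0.862 in RD shSKP2, 2.25 in JR1 shSCR and 1.5 in JR1 shSKP2. WWTR1 thus had more TPM than YAP1 in JR1 in both conditions, while in RD it had more with shSCR and less with shSKP2. In RD shSKP2 WWTR1 (19.3 TPM) and YAP1 (22.4 TPM) stood within a few TPM of each other. With 1 library per group no spread is known by which to order them. The summed TPM of YAP1 and WWTR1 was close between the lines in each condition, at 81.8 in RD shSCR and 73.8 in JR1 shSCR, and at 41.8 in RD shSKP2 and 42.8 in JR1 shSKP2.

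**Figure D1:**
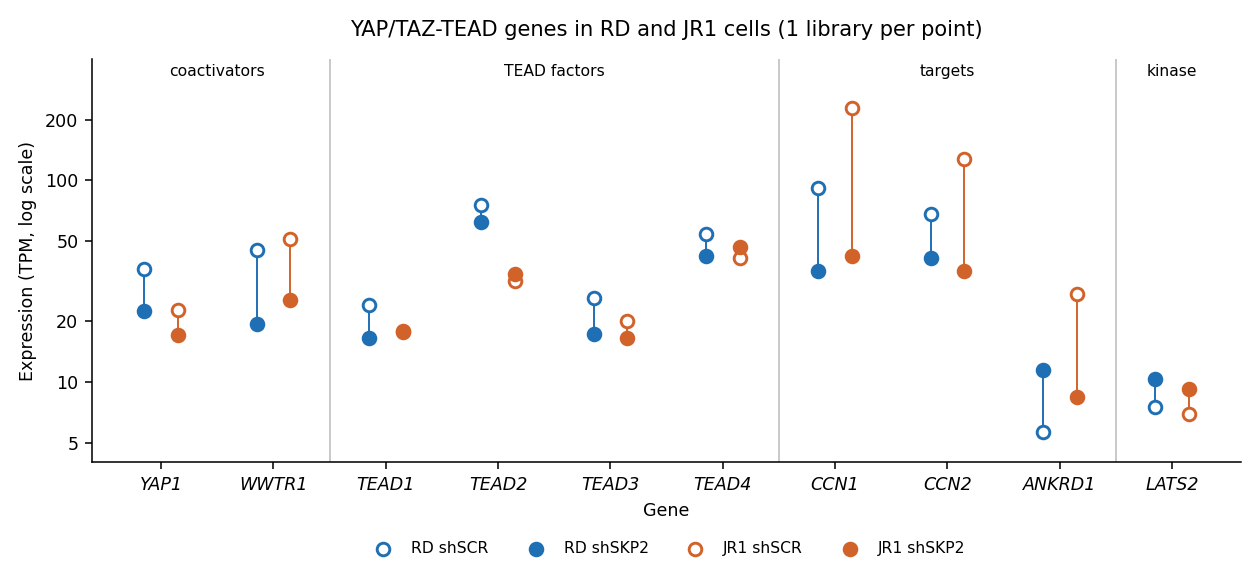
Expression of the 10 genes in TPM on a log axis, with 1 point per library: open points are shSCR, filled points shSKP2, blue is RD and orange JR1, and lines join the libraries of a line. CCN1 and CCN2 start highest in JR1 shSCR (227 and 127 TPM) and end near the RD values with shSKP2, and ANKRD1 moves up in RD and down in JR1.

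TEAD factors bring YAP and TAZ to DNA. TEAD2, on chromosome 19 (bases 49340595 to 49362452), was the TEAD gene with most TPM in RD, with 75.2 TPM in shSCR and 61.9 TPM in shSKP2, against 31.8 and 34.6 TPM in JR1. TEAD4, on chromosome 12 (bases 2959397 to 3040676), a factor with a known role in myogenic differentiation, had 54.2 and 42.2 TPM in RD and 41.2 and 47.0 TPM in JR1 in the same order. In JR1 it stood above TEAD2 in both libraries. TEAD1, on chromosome 11 (bases 12674421 to 12944737), had 24.2 and 16.6 TPM in RD and 17.8 and 17.9 TPM in JR1. TEAD3, on chromosome 6 (bases 35473597 to 35497079), had 26.2 and 17.4 TPM in RD and 20.2 and 16.6 TPM in JR1. TEAD1 and TEAD3 were below TEAD2 and TEAD4 in all 4 libraries, but stood within a few TPM of each other, and with 1 library per group no spread is known by which to order them.

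After SKP2 depletion 7.37% of all tested genes fell and 1.08% rose in RD, and 9.05% and 1.78% in JR1. None of the 4 TEAD genes changed by 2-fold in either line. Their log2 changes in RD were -0.51 for TEAD1, -0.28 for TEAD2, -0.57 for TEAD3 and -0.35 for TEAD4, and in JR1 0.00, 0.12, -0.27 and 0.19. The scaling decides part of these signs. Against the median tested gene TEAD2 stood at -0.01 in RD and 0.33 in JR1, and without short structural RNA genes TEAD2 (0.12) and TEAD4 (0.04) turned positive in RD and TEAD3 (0.01) in JR1. TEAD2 overlaps DKKL1 and CD37 in the tables, for which at most 2.64 and 8.72 TPM were listed.

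The make-up of the TEAD pool is likewise free of scaling, and the shares of TEAD2 and TEAD4 differed more between lines than between conditions. TEAD2 was 41.9% of the summed TEAD TPM in the RD control and 44.8% in RD shSKP2, but 28.7% in JR1 shSCR and 29.8% in JR1 shSKP2. TEAD4 was 30.1% and 30.6% in RD and 37.1% and 40.5% in JR1. The TEAD sum was 180 and 138 TPM in RD and 111 and 116 TPM in JR1, and TEAD transcripts per coactivator transcript went from 2.2 to 3.31 in RD and from 1.5 to 2.71 in JR1.

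**Figure D2:**
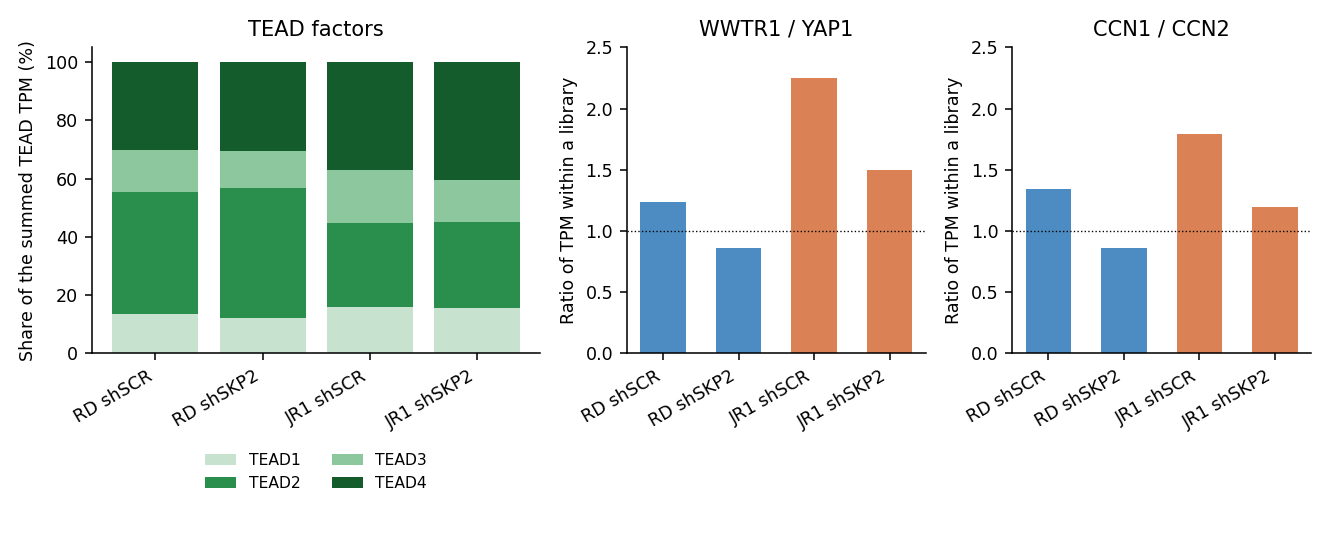
Left, share of each TEAD gene in the summed TEAD TPM (%) of each of the 4 libraries; middle and right, the TPM ratios of WWTR1 to YAP1 and of CCN1 to CCN2 within a library, with a dotted line at 1, blue for RD and orange for JR1. TEAD2 is 41.9% and 44.8% of the pool in RD and 28.7% and 29.8% in JR1, and both ratios are lower with shSKP2 in each line.

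CCN1 and CCN2, formerly CYR61 and CTGF, encode secreted matricellular proteins that bind integrins and are the most widely used readouts of YAP and TAZ. CCN1, on chromosome 1 (bases 85580761 to 85583950), had 91.8 TPM in RD shSCR, 35.7 TPM in RD shSKP2, 227 TPM in JR1 shSCR and 42.4 TPM in JR1 shSKP2. The JR1 control stood far above the other 3 libraries, and the shSKP2 libraries of the lines lay close together. CCN1 fell in both lines, with log2 changes of -1.34 in RD and -2.4 in JR1, and its TPM was 2.57-fold and 5.37-fold lower. Only 0.501% of the tested genes had a lower change in JR1, and 2.97% in RD. CCN2, on chromosome 6 (bases 131948176 to 131951372), had 68.4 TPM in RD shSCR, 41.4 TPM in RD shSKP2, 127 TPM in JR1 shSCR and 35.4 TPM in JR1 shSKP2. It fell in JR1, by 1.82 on the log2 scale, while its change in RD was -0.71. Against the median tested gene CCN1 changed by -1.07 in RD and -2.18 in JR1, and CCN2 by -0.44 and -1.60. Without short structural RNA genes CCN1 in RD was at -0.95, inside the limit. The ratio of CCN1 to CCN2 was 1.34 and 0.864 in RD shSCR and shSKP2, and 1.79 and 1.20 in JR1, so that CCN1 lost more than CCN2 in each line.

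ANKRD1 encodes CARP, a nuclear and sarcomeric ankyrin repeat protein of striated muscle, and is at once a YAP target and a muscle gene. On chromosome 10 (bases 90912096 to 90921087), it had 5.69 TPM in RD shSCR, 11.5 TPM in RD shSKP2, 27.3 TPM in JR1 shSCR and 8.47 TPM in JR1 shSKP2. The control libraries of the lines were thus the lowest and the highest of the 4, with the shSKP2 libraries between them. In RD its TPM was 2.02-fold higher with shSKP2, but the change on the scale of TPM + 1 was 0.90, inside the limit, and it became 1.17 against the median tested gene and 1.34 without the short structural RNA genes. In JR1 ANKRD1 fell by 1.58, and by 1.37 and 1.36 on those other scales. Its change in RD minus its change in JR1 was 2.48, and 99.5% of the tested genes had a smaller difference between the lines in either direction. For CCN1 and CCN2 this difference was 1.06 and 1.10, larger than that of 97.7% and 97.9% of the genes. The difference between the lines has no replicate check.

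LATS2, on chromosome 13 (bases 20973036 to 21061586), encodes a kinase that phosphorylates YAP and TAZ. It had 7.54 TPM in RD shSCR, 10.3 TPM in RD shSKP2, 6.96 TPM in JR1 shSCR and 9.28 TPM in JR1 shSKP2. The shSKP2 library was the higher one in each line, with changes of 0.41 in RD and 0.37 in JR1 that did not reach 2-fold under any scaling tried. Against the median tested gene these were 0.68 and 0.58, and LATS2 lay above 94.2% and 89.8% of the tested genes. The changes of LATS2 in the lines differed by 0.04, the smallest difference of the 10 with the TPM as deposited, but without short structural RNA genes WWTR1 differed less (-0.12 against 0.14). Its paralog LATS1 went from 14.3 to 9.92 TPM in RD and, for JR1, from 8.45 to 7.42 TPM, and the ratio of LATS2 to LATS1 from 0.528 to 1.04 and from 0.824 to 1.25.

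Sequence upstream of the target genes is shown because TEAD factors are known to bind the word GGAATG, the core of the muscle MCAT element, and because CCN2 and ANKRD1 were among the genes that fell in JR1. Promoters from RefSeq (GRCh38.p14), from 250 bases before to 50 bases after the gene start, were found for 7 of the 10 genes, and TEAD1, TEAD4 and CCN1 had none in the table. The 250 bases before the start follow, 5′ to 3′ on the strand of the gene, with GGAATG in capitals. CCN2 lies on the minus strand (chr6:131951373-131951622), ANKRD1 on the minus strand (chr10:90921088-90921337) and YAP1 on the plus strand (chr11:102110197-102110446). For LATS2, on the minus strand (chr13:21061560-21061589), the word lies just past the start and only 30 bases around it are given.
CCN2: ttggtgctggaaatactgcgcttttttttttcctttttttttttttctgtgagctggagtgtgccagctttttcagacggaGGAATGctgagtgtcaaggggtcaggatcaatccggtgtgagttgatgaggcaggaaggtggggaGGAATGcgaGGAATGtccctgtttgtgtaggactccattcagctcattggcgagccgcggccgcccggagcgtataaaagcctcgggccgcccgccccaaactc
ANKRD1: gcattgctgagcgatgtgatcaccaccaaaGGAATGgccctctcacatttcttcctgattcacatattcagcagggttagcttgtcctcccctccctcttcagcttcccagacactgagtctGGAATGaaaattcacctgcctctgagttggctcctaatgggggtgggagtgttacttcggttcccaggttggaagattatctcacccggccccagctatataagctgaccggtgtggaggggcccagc
YAP1: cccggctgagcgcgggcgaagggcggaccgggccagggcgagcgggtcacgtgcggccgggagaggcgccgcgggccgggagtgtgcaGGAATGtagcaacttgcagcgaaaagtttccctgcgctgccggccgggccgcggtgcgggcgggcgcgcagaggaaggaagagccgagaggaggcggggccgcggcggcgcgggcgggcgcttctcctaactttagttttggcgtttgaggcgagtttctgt
LATS2: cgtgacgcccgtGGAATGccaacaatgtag

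Positions are those of the first base of the word, counted from the start, with negative numbers upstream. CCN2 held the word 3 times, at -169, -104 and -95. ANKRD1 held it 2 times, at -220 and -128. YAP1 held it once, at -162 from a RefSeq start that is not the gene start in the authors' tables, and LATS2 once, at 9. The promoters of WWTR1, TEAD2 and TEAD3 in the table did not hold these letters. Of all 35116 promoters of the same length 14.0% held GGAATG on either strand, and of the 14699 promoters of tested genes 11.5% did, while 3 or more copies were found in 0.0544% of the latter. Of the 15 promoters found for the other YAP and TAZ targets listed below, 6 held it. The word TGANTCA, where N is any base, was used as a loose form of the AP-1 site. Among these 9 promoters it was found in that of ANKRD1 alone, at -195, with the letters TGATTCA (7.71% of all promoters held the word). No CArG box, the site of SRF, was found (1.29% of all promoters). A match is a description of the letters in this window and not a bound site.

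Over the 10 genes, 2 fell in RD (WWTR1 and CCN1) and 0 rose, where 7.37% of all tested genes fell and 1.08% rose. In RD 1 of the 10 fell (CCN1) and 1 rose (ANKRD1) after centring on the median tested gene, and 0 fell and 1 rose (ANKRD1) without short structural RNA genes. In JR1 3 fell (CCN1, CCN2 and ANKRD1) and 0 rose, under each of these scalings, against 9.05% and 1.78% of all tested genes. These shares of all tested genes turned on scaling: centred on the median, 3.53% fell and 2.09% rose in RD, and 5.47% and 2.99% in JR1, and without short structural RNA genes 3.43% and 3.81%, and 6.74% and 4.7%. The median change of the 10 genes was -0.54 (RD) and -0.33 (JR1), that is -0.27 and -0.11 against all tested genes. Among these 10 genes CCN1 fell in both lines, 5 were below 0 in both, LATS2 was above 0 in both, and TEAD1, TEAD2, TEAD4 and ANKRD1 differed in sign. Of all tested genes 61.1% were below 0 in both lines and 21.3% differed in sign. The share of all tested genes that fell by 2-fold or more in both lines was not computed.

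**Figure D3:**
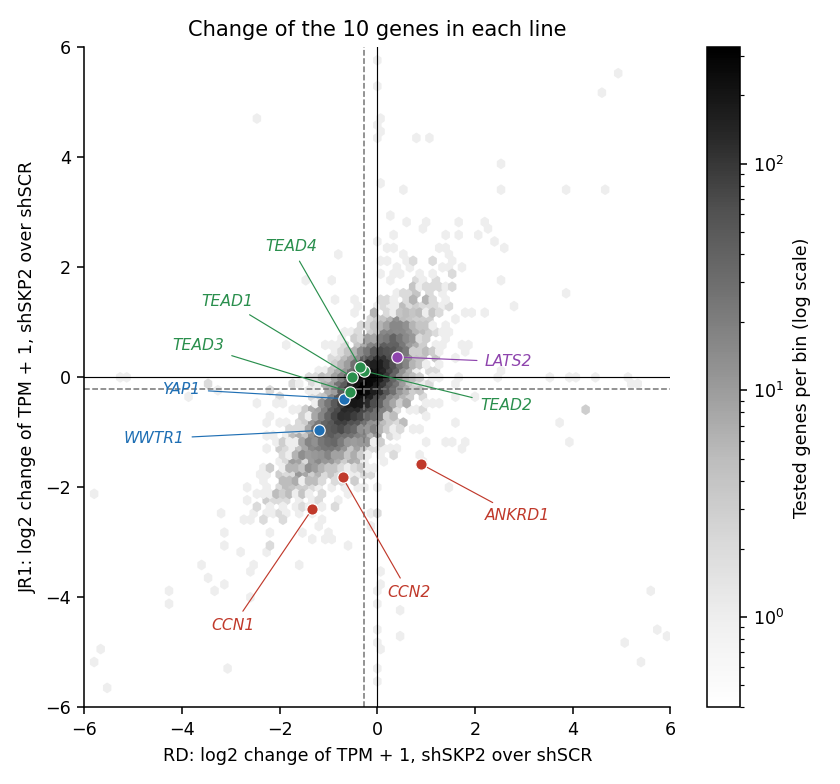
Each of the 10 genes placed by its log2 change of TPM + 1 in RD (horizontal) and in JR1 (vertical), over a grey density of the 12985 tested genes, of which 4 lie outside the axes; dashed lines are the medians of all tested genes (-0.27 and -0.21). The TEAD genes lie in the dense centre, CCN1 and CCN2 lie below it, and ANKRD1 (0.90 and -1.58) lies in the quadrant of a higher value in RD and a lower one in JR1.

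**Figure D4:**
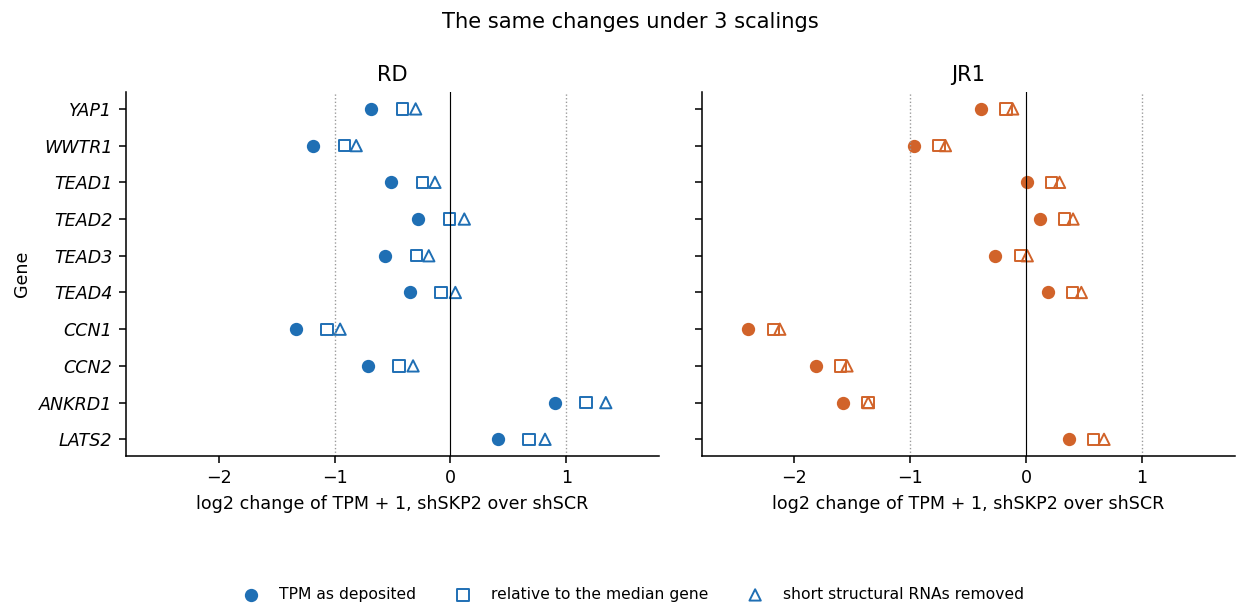
Log2 change of TPM + 1 in RD (left) and JR1 (right) for each of the 10 genes with the TPM as deposited (filled circles), against the median tested gene (squares) and without short structural RNA genes (triangles); dotted lines mark 2-fold. CCN1, CCN2 and ANKRD1 in JR1 stay past 2-fold under all 3 scalings, and in RD only ANKRD1 passes 2-fold upward, in the rescaled values.

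Of the 10 genes the control cells of the lines differed by 2-fold or more in CCN1, ANKRD1 and TEAD2. After centring TEAD2 was at 0.98, inside the limit, and CCN2 passed it, at -1.12 after centring and -1.11 without short structural RNA genes. With shSCR, the RD value over the JR1 value was -1.30 on the log2 scale for CCN1, -0.88 for CCN2 and -2.08 for ANKRD1, or 2.48-fold, 1.86-fold and 4.80-fold more TPM in JR1. TEAD2 was higher in RD, by 1.22. In all, 1 of the 10 genes was higher in RD by 2-fold or more and 2 were lower, where 6.5% of all tested genes were higher and 3.44% lower. The median of the 10 was 0.23, the same to 2 decimals as that of all tested genes. YAP1 was at 0.66 and WWTR1 at -0.17, and JR1, with more CCN1, CCN2 and ANKRD1, had less YAP1 and slightly more WWTR1.

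With the TPM as deposited, the lines lay closer together with shSKP2 in all of the 10 genes but WWTR1 and LATS2. The share of all tested genes that did so was not computed. The median RD over JR1 of all tested genes also moved toward 0, from 0.23 with shSCR to 0.17 with shSKP2. CCN1 was at -0.24, CCN2 at 0.22 and ANKRD1 at 0.40 as RD over JR1, and TEAD2 at 0.82. YAP1 was at 0.37, TEAD1 at -0.10, TEAD3 at 0.06 and TEAD4 at -0.15. WWTR1 was further apart than with shSCR, at -0.39, and LATS2 was at 0.14 against 0.10. The scaling decides part of this. After centring, TEAD1 (0.19 with shSCR, -0.27 with shSKP2) and TEAD4 (0.16 and -0.32) lay further apart with shSKP2, and LATS2 (-0.13 and -0.03) closer. None of the 10 genes differed by 2-fold in either direction, where 5.39% of all tested genes were higher in RD and 2.7% lower. The summed CCN1 and CCN2 TPM per TPM of YAP1 and WWTR1 was 1.96 in RD shSCR and 1.85 in RD shSKP2, against 4.80 in JR1 shSCR and 1.82 in JR1 shSKP2. These comparisons use the same 4 libraries as the changes within each line and add no independent evidence to them.

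The rest of the pathway was followed with lists of genes that were chosen with earlier results of these data known. Of the core kinases and adaptors STK3, STK4, SAV1, LATS1, MOB1A and MOB1B, 0 of 6 changed by 2-fold in either line. Of all tested genes, 7.37% fell and 1.08% rose in RD, and 9.05% and 1.78% in JR1. The median change of the 6 was -0.33 (RD) and -0.24 (JR1), that is -0.06 and -0.03 against all tested genes. MOB1A, a LATS coactivator, was the lowest in both lines (-0.81 and -0.70), and its paralog MOB1B the highest (0.26 and 0.27).

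Of 16 upstream regulators, from cadherins of the FAT and Dachsous family to the WWC scaffolds, 15 were tested, 3 fell in each line and 0 rose, where 7.37% of all tested genes fell in RD and 9.05% in JR1. DCHS1, a protocadherin that binds FAT4, fell in both, from 21.1 to 8.51 TPM in RD and, for JR1, from 11.0 to 4.10 TPM. WWC3, a scaffold related to KIBRA, had changes of -1.69 and -0.91, from 4.04 to 0.560 TPM in RD and, for JR1, from 1.24 to 0.190 TPM. MAP4K4, a kinase that phosphorylates LATS, fell in RD, from 88.3 to 42.5 TPM, while its change in JR1 was -0.71. The other falls in JR1 were those of WWC1 (2.25 to 0.570 TPM) and FRMD6 (20.4 to 9.49 TPM). FAT1 was the highest in RD, from 38.6 to 58.9 TPM, and TAOK3 in JR1, from 7.42 to 12.2 TPM. The median of the list was -0.27 in RD and -0.34 in JR1, close to that of all tested genes. Without short structural RNA genes DCHS1 in RD (-0.88), MAP4K4 in RD (-0.65) and FRMD6 in JR1 (-0.79) were inside the limit, while WWC3 passed it in JR1 (-1.34) and FAT1 reached it in RD, so that 1 fell in RD and 3 in JR1.

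Among 8 proteins that hold YAP and TAZ in the cytoplasm or mark them for degradation, 1 fell in RD and 0 in JR1, against the same 7.37% and 9.05%. AMOT, an angiomotin that binds YAP, went from 11.7 to 3.04 TPM in RD and had at most 0.130 TPM in JR1. AMOTL1 was likewise higher in RD shSCR (58.6 TPM) than in the other 3 libraries (24.8 to 31.0 TPM). BTRC, the F-box protein that targets YAP and TAZ, stayed between 9.85 and 12.4 TPM in all 4. CSNK1D was lowest in JR1, from 38.7 to 21.6 TPM, and CSNK1E highest, from 37.0 to 60.3 TPM. PTPN14, a phosphatase that binds YAP, was at -0.59 in RD and -0.81 in JR1, and TP53BP2 at -0.40 and -0.34.

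The vestigial-like proteins bind TEAD factors in place of YAP and TAZ. VGLL2, a cofactor of TEAD in skeletal muscle, went from 55.1 to 86.5 TPM in RD and, for JR1, from 49.6 to 70.4 TPM. VGLL4, which competes with YAP for TEAD, went from 25.3 to 37.6 TPM in RD and, for JR1, from 36.3 to 51.2 TPM. Their changes, 0.64 and 0.50 for VGLL2 and 0.55 and 0.48 for VGLL4, were inside 2-fold with the TPM as deposited, and without short structural RNA genes VGLL2 was at 1.05 in RD. VGLL3 went the other way at low values, from 0.850 to 0.170 TPM in RD and, for JR1, from 2.75 to 0.900 TPM. VGLL1 had at most 0.0500 TPM and was not tested.

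Of 18 other genes used as YAP and TAZ targets, 17 were tested, 1 fell in each line and 0 rose, where 7.37% and 9.05% of all tested genes fell. RBMS3 fell in RD, from 8.43 to 2.90 TPM, and NUAK2, a kinase, in JR1, from 9.97 to 3.58 TPM. TGFB2 was the highest in both lines, from 2.49 to 3.28 TPM and from 2.55 to 4.33 TPM. The median was -0.42 (RD) and -0.60 (JR1), that is -0.15 and -0.38 against all tested genes. 13 of the 17 were below 0 in both lines, as were 61.1% of all tested genes. Below the median of all tested genes in both lines were 11 of the 17, and the matching share of all tested genes was not computed.

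Some of the lowest values stood in a list of AP-1 factors, which bind together with TEAD at many enhancers. FOS fell from 93.5 to 24.4 TPM in RD and, for JR1, from 110 to 24.1 TPM. FOSB fell from 30.5 to 5.27 TPM and from 42.8 to 6.62 TPM, and JUNB from 84.3 to 26.4 TPM and from 107 to 30.9 TPM. These 3 of 7 factors fell in both lines under all 3 scalings, with changes from -1.64 (JUNB in RD) to -2.52 (FOSB in JR1). Of all tested genes 7.37% fell in RD and 9.05% in JR1. Centred on the median these shares were 3.53% and 5.47%, and without short structural RNA genes 3.43% and 6.74%. The share that fell in both lines was not computed. FOSL2 was the highest in both lines (0.51 and 0.32). JUN was at -0.01 and -0.51, JUND at -0.71 and -0.07, and FOSL1 at 0.22 and -0.58. CCN1, like FOS, FOSB and JUNB, is known as an immediate early gene that serum induces, and the part of that response in its fall was not tested.

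SRF and its MRTF cofactors also drive CCN1 and CCN2. Of the 12 genes of SRF, its cofactors and its targets 11 were tested, 2 fell in RD, 1 fell in JR1 and 0 rose, beside 7.37% and 9.05% of all tested genes that fell. VCL, which encodes vinculin, fell in both, from 188 to 60.2 TPM in RD and, for JR1, from 128 to 45.9 TPM. TAGLN fell in RD, from 18.5 to 7.37 TPM, and was at -0.67 in JR1, and without short structural RNA genes it was at -0.89 in RD. SRF itself went from 40.6 to 33.8 TPM in RD and, for JR1, from 26.1 to 30.4 TPM. FHL2 was the highest in RD (0.38) and MRTFB in JR1 (0.26). The median of the list was -0.40 (RD) and -0.04 (JR1), that is -0.13 and 0.18 against all tested genes.

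Of the paralogs of the targets, CCN3 alone was tested among CCN3, CCN4, CCN5 and CCN6, and went from 1.24 to 0.260 TPM in RD and, for JR1, from 4.85 to 2.69 TPM. CCN5 was listed at 0 in all 4 libraries. ANKRD23 had 1.34 to 2.91 TPM and ANKRD2 at most 0.610 TPM, so that ANKRD1 was the muscle ankyrin repeat gene with most TPM in every library.

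**Figure D5:**
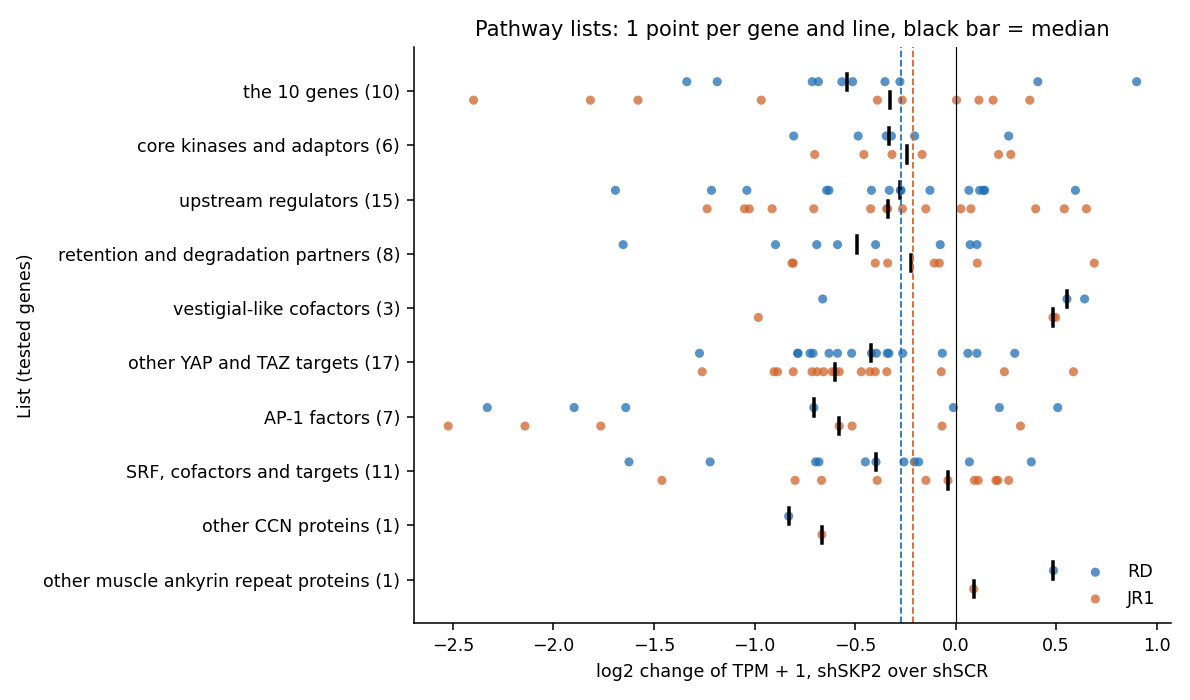
Log2 change of TPM + 1 after SKP2 depletion, 1 point per tested gene in RD (blue) and JR1 (orange), with a black bar at the median of each list and dashed lines at each line's median tested gene; the number of tested genes is in brackets. FOS, FOSB and JUNB are the 3 low points of the AP-1 factors in both lines, VGLL2 and VGLL4 lie to the right of 0, and the kinases scatter around the dashed lines.

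The profiles most like those of the targets were found by the Euclidean distance of log2(TPM + 1) over the 4 libraries, each gene centred on its own mean. With 4 libraries such likeness is a description. Nearest to CCN1 were TLL2 (distance 0.098), PCOLCE (0.18) and CD82 (0.24), and TLL2 had 9.54 and 2.90 TPM in RD and 25.3 and 4 TPM in JR1. Nearest to CCN2 were SRPX2 (0.14), SNORA71D (0.19) and C1QTNF5 (0.22). ANKRD1 had no neighbour as close: ASPHD1 (0.54), SNORA57 (0.56) and SPOCD1 (0.56) came nearest, and SPOCD1 had from 0.970 to 5.13 TPM.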

How the data were processed

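RNA from 4 samples was analysed, 1 library each of RD and JR1 with shSCR or shSKP2. Poly-A RNA was made into libraries with a directional kit and read from both ends. Alignment, to GRCh38, was by STAR 2.7.9a, and TPM came from RSEM 1.3.2. The authors deposited 1 TPM value per gene. TPM keep no read counts, so depth and counting error are unknown. How strand was used in counting is not given in the sources used here.

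TPM were used as deposited. Changes were log2 of the ratio of TPM + 1, which understates changes of low genes. A mean TPM of 1 or more was required (12985 of 39323 genes), and 2-fold was the limit for a call. No test was run: within a line there is 1 library per condition, and a fit over both lines with line as a block, which would take RD and JR1 as replicates, was not made. Alternatives were 0.1 TPM added, centring on the median gene, removal of 2605 short structural RNA genes by symbol with rescaling, a minimum of 5 TPM, no filter and a limit of 1.5-fold. The functions were tested on simulated data.

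The 10 genes and the 9 lists were chosen with earlier results of these data known. Named were the 10 genes, SKP2, genes of lists of up to 8 genes, the highest and lowest tested gene of longer lists in each line, and the 3 nearest profiles of CCN1, CCN2 and ANKRD1. MAP4K4, WWC1, FRMD6, TAGLN and SRF, and in the closing section IGFBP3, were named after their values were seen. Coordinates are those of the deposited tables. Python 3.11.15, pandas 2.3.3, numpy 2.4.6 and matplotlib 3.10.9 were used.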

Additional observations from a re-analysis of the deposited data

Results flagged for a closer look

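The results below moved in opposite directions in RD and JR1. With 1 library per line and condition the difference was not tested. ANKRD1 had the largest difference of the 10 genes (RD change minus JR1 change, 2.48 on the log2 scale), and kept opposite signs under every scaling tried, with 2.54 after centring on the median gene and 2.7 without short structural RNA genes. The other genes of the 10 were TEAD1 (-0.52), TEAD2 (-0.39) and TEAD4 (-0.54). Without short structural RNA genes TEAD2 and TEAD4 were above 0 in both lines.

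In the lists the same was seen for STK3 (-0.56), AMOTL1 (-1.0), AMOTL2 (0.51), FOSL1 (0.80), SRF (-0.47) and MRTFB (-0.47). SRF and MRTFB were above 0 in both lines after centring and without short structural RNA genes. Genes of the longer lists that the text does not otherwise name are left out here. In all, 5 of the 11 tested genes of SRF, its cofactors and its targets differed in sign. So did 3 of the 17 other YAP and TAZ targets and 0 of the 15 upstream regulators. The genes nearest to ANKRD1 were chosen for a like profile, so their differences follow from that choice: ASPHD1 1.42, SNORA57 2.59 and SPOCD1 1.39. Of all tested genes 21.3% differed in sign between the lines.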

How the results depend on the processing

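The count of the 10 genes that rose in RD, 0 with the TPM as deposited, was 1 (ANKRD1) with 0.1 TPM added, 1 after centring, 1 without short structural RNA genes and 1 at 1.5-fold. The count that fell in RD, 2, was 1 after centring (CCN1), 0 without short structural RNA genes and 4 at 1.5-fold. As RD over JR1 with shSCR, the count higher in RD, 1, was 0 after centring and 2 at 1.5-fold, and with shSKP2, 0, it was 1 at 1.5-fold. The count lower in RD with shSCR, 2, was 3 after centring, 3 without short structural RNA genes and 3 at 1.5-fold. The 3 falls in JR1 were 3 in every setting but 1.5-fold, where they were 4. At 1.5-fold 23.2% of all tested genes fell and 3.2% rose in RD, and 23.4% fell in JR1. As RD over JR1, 20.4% were then higher and 7.02% lower with shSCR, and 16.1% higher with shSKP2. With 0.1 TPM added 2.15% rose in RD. With shSCR, 3.81% were higher in RD and 5.06% lower after centring, and 5.72% were lower without short structural RNA genes. Neither filter moved a value, since all 10 genes passed each. Of 50 differences between the lines' changes none changed sign, and of 100 changes within a line 3 did (TEAD2 and TEAD4 in RD, TEAD3 in JR1, all without short structural RNA genes). Of 100 values of RD over JR1 5 changed sign: LATS2 with shSCR (-0.13 centred, -0.10 without short structural RNA genes), LATS2 with shSKP2 (-0.03 centred) and TEAD3 with shSKP2 (-0.11 and -0.04). The medians of the 10 genes as RD over JR1 also turned negative after centring (-0.00083 with shSCR, -0.07 with shSKP2). No single change of the 10 genes moved by more than 1.5-fold. Low genes of the lists did with 0.1 TPM added: WWC3 changed by -2.65 in RD and -2.21 in JR1, VGLL3 by -1.81 in RD, CCN3 by -1.90 in RD and WWC1 by -1.81 in JR1. As RD over JR1, AMOT was then at 5.68 with shSCR and 4.39 with shSKP2. Pairing the hairpins by line was not tried, since each line has 1 library per condition and the labels number no replicates. Depth is unknown, so the precision of low values such as those of VGLL3 and WWC3 cannot be given.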

Other observations

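With shSCR, 2 genes of the lists separated the lines more than any of the 10 genes did. IGFBP3, an insulin-like growth factor binding protein that is also used as a YAP and TAZ target, had 7.91 TPM in RD shSCR and 4.76 TPM in RD shSKP2 against 120.2 and 75.9 TPM in JR1, and its log2 ratio of RD to JR1 was -3.77 with shSCR and -3.74 with shSKP2. AMOT was the reverse, higher in RD by 3.49 with shSCR and 1.94 with shSKP2. It had only 0.130 and 0.0500 TPM in JR1, so these sizes depend on the 1 TPM added. With 0.1 TPM added they were 5.68 and 4.39. Unlike CCN1, CCN2 and ANKRD1, IGFBP3 kept about the same difference between the lines in both conditions, and with shSKP2 it changed by -0.63 (RD) and -0.66 (JR1). Of the 7 AP-1 factors 6 were lower in RD than in JR1 with shSCR, as were 28.3% of all tested genes. None of the 7 differed by 2-fold, where 6.5% of all tested genes were higher in RD and 3.44% lower.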
